A study of Mus musculus with 72 samples.

Results

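The drug metabolising set held the 57 probe sets, of 45101 on the array, whose platform gene symbol begins with Cyp1a, Cyp1b, Cyp2 followed by a letter, or Cyp3a, together with those for the receptors Nr1i2 and Nr1i3. Of these, 55 carried a single symbol and stood for 45 genes, 43 of them cytochromes, of the 18194 genes that single-symbol probe sets named. The other 2 carried several symbols (Cyp2a5 with Cyp2a4, and Cyp3a41b with Cyp3a41a) and are named here by their identifiers, 1422230_s_at and 1419704_at. Por was not analysed here. RNA of liver, kidney, heart and brain came from female SAMP1 mice, the senescence accelerated mice prone 1 strain, and each array was a different mouse within its tissue. The mice ate a diet with QH2, the reduced form of coenzyme Q10, a diet with Q10, the oxidised form, or a control diet. Intake of either form was 500 mg per kg body weight per day from 4 weeks of age. Feeding lasted 14 or 6 months, which gave mice of 15 or 7 months of age, so that time on the diet and age cannot be told apart. Each of the 24 groups had 3 arrays, 72 in all. All groups are SAMP1 and no strain with ordinary ageing is among them. Mice shared cages whose members did not change, so cage and diet group may coincide.

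Cytochromes P450 are haem proteins of the endoplasmic reticulum that use oxygen and electrons passed on by cytochrome P450 oxidoreductase to hydroxylate drugs, steroids and fatty acids. Families CYP1 to CYP3 do most of this work in the liver, where they are abundant and inducible. Nr1i2 encodes the pregnane X receptor and Nr1i3 the constitutive androstane receptor. Both pair with retinoid X receptors to raise transcription of Cyp2b, Cyp2c and Cyp3a genes, while the aryl hydrocarbon receptor raises Cyp1a1, Cyp1a2 and Cyp1b1.

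The genes lie in clusters. RefSeq on GRCm38 places 10 of them on chromosome 7 (among them Cyp2b9, Cyp2b10, Cyp2b13, Cyp2a12, Cyp2f2 and Cyp2e1), 11 Cyp2c genes on chromosome 19, 8 Cyp2d genes on chromosome 15, 5 Cyp2j genes on chromosome 4, 5 Cyp3a genes on chromosome 5, and Cyp1a1 with Cyp1a2 on chromosome 9. The 3 Cyp2b genes that lead the liver results below moved together, so the 250 bases before each start site are shown (RefSeq, GRCm38.p6, plus strand, chr7:26173159-26173408, chr7:26061245-26061494 and chr7:25897408-25897657), with matches to TTGCNNAA, a pattern found in binding sites of C/EBP proteins, in capitals.
Cyp2b9: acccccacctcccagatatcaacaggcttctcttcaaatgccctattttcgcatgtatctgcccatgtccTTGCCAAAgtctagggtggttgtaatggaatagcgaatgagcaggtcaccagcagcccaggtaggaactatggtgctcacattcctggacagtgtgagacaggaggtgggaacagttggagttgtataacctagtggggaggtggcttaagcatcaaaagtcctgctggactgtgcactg
Cyp2b13: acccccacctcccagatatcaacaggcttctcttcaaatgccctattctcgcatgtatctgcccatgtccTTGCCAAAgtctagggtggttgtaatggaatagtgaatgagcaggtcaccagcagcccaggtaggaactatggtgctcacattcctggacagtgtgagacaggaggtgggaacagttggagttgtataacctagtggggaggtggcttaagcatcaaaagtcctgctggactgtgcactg
Cyp2b10: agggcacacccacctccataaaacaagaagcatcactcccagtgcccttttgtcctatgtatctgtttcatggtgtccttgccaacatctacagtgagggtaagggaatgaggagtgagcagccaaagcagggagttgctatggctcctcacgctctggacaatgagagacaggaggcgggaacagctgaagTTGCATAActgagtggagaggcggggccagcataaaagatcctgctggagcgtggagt

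The Cyp2b9 and Cyp2b13 windows matched at 248 of 250 positions (99.2%), and with positions counted from 1 at the 5′ end the differences are T48C and C104T, with the Cyp2b9 base first. Cyp2b10 matched either of them at 71.0% of 262 aligned columns. On either strand TTGCNNAA starts 180 bases before the start site in Cyp2b9 and Cyp2b13 and 58 bases before it in Cyp2b10, with no overlap with TATAAA, which none of the 3 windows holds. Of the 45 genes, 37 had a promoter in the table, 40 promoters in all. TTGCNNAA occurred in 8 of these 40 (20.0%), against 9.56% of 32851 mouse promoters, and TATAAA in 17 (42.5%), against 12.4%.

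The tissues carried their own markers. Summed signals of 8 hepatocyte markers were 61038 to 70782 in liver arrays and at most 13332 elsewhere, and kidney tubule, cardiomyocyte and neuron markers were likewise highest in their own organ. Array medians of the deposited values ran from 7.5 to 21.5 in liver and 24.4 to 40.3 in brain, and the arrays were quantile normalised within each tissue. A probe set was tested in a tissue when its mean lay above the 40th percentile of all probe sets there. This held for 50 of the 57 members in liver and for 29 kidney, 22 heart and 8 brain members, and the other members were not tested there. Changes below are differences of log2(signal + 1) with their standard error, and a call is an adjusted p under 0.05 from limma with Benjamini-Hochberg adjustment over all 27022 probe sets tested. With 3 arrays a group, an exact permutation test of a single probe set cannot go below p = 0.1.

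The set was chiefly hepatic. On arrays normalised across all 72, 52 members passed the filter on the mean over all arrays. A member could pass through a high signal in liver alone, so the counts by tissue are partly fixed by the filter. Of these members, 41 had their highest mean log2(signal + 1) in liver, 32 with every liver array above every array of the next tissue. Kidney was highest for 8, heart for 2 and brain for 1. In liver against kidney 42 members were higher and 7 lower, 49 called in all, against 71.7% of all probe sets called in either direction. The count called was 50 in liver against heart (46 higher, 4 lower) against 80.8% of all probe sets, and 50 in liver against brain (45 higher, 5 lower) against 85.7%. The median member difference was 4.89 against kidney, 6.28 against heart and 6.97 against brain on the log2 scale, beside medians of -0.04, -0.10 and 0.06 over all probe sets. Many members lay below the filter in the tissue with less, where a log2 difference is taken against background and its exact size means little. In bulk tissue, fewer cells of a type and less RNA per cell cannot be told apart.

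Cyp3a11, the main inducible CYP3A enzyme of mouse liver, had a lowest, median and highest signal of 7037, 8101 and 9875 in the 18 liver arrays, against 1.71, 10.9 and 56.2 in the 18 kidney arrays. Cyp3a25 had 1799.9, 4385 and 5290.2 in liver, against 0.338, 1.03 and 14.2 in kidney, and Cyp2a12 3117, 4603 and 5256 in liver, against 0.803, 1.84 and 13.6 in kidney, where both were below the filter. Liver and kidney did not overlap for any of these 3 genes. Cyp2c29, a target of both receptors, ran at 1064, 6067 and 7359.6 in liver, 8.69 ± 0.29 above kidney on the log2 scale. Cyp1a2, which oxidises caffeine and aromatic amines, had 925, 4671 and 5452 in liver, and in kidney it was below the filter. Cyp2e1, which oxidises ethanol and other small molecules, was less confined: its signal was 5170.0, 9831 and 11628 in liver, against 1126, 2337 and 3344 in kidney, a difference of 2.06 ± 0.19 with no overlap. The receptors were also higher in liver. Nr1i3 had 253, 538 and 734 in liver and was below the filter in kidney, and Nr1i2 (1425723_at) differed by 2.90 ± 0.18.

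A smaller group was lower in liver. Cyp2j11 had a lowest, median and highest signal of 0.566, 2.53 and 12.1 in liver, against 974, 1340.0 and 1504 in kidney, and its liver mean was below the filter. Cyp2s1, best known from epithelia outside the liver, had 0.696, 15.4 and 37.3 in liver, against 88.2, 134 and 168 in kidney. Cyp2d12 differed by -2.72 ± 0.23 between liver and kidney. Cyp1b1 (1416613_at), an estrogen hydroxylase, had 0.19, 6.06 and 81.7 in liver, where it did not pass the filter, against 59.1, 97.2 and 162 in kidney. For Cyp2j5, an arachidonic acid epoxygenase, the ranges overlapped, with 1519.6, 3027 and 3929 in liver, against 3680.0, 4709 and 5579 in kidney. Cyp2j9 was the member highest in brain, where liver, the next tissue, differed from it by -1.94 ± 0.18, and Cyp2u1 (1444960_at) was highest in heart, both with no overlap with the next tissue.

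**Figure D1:**
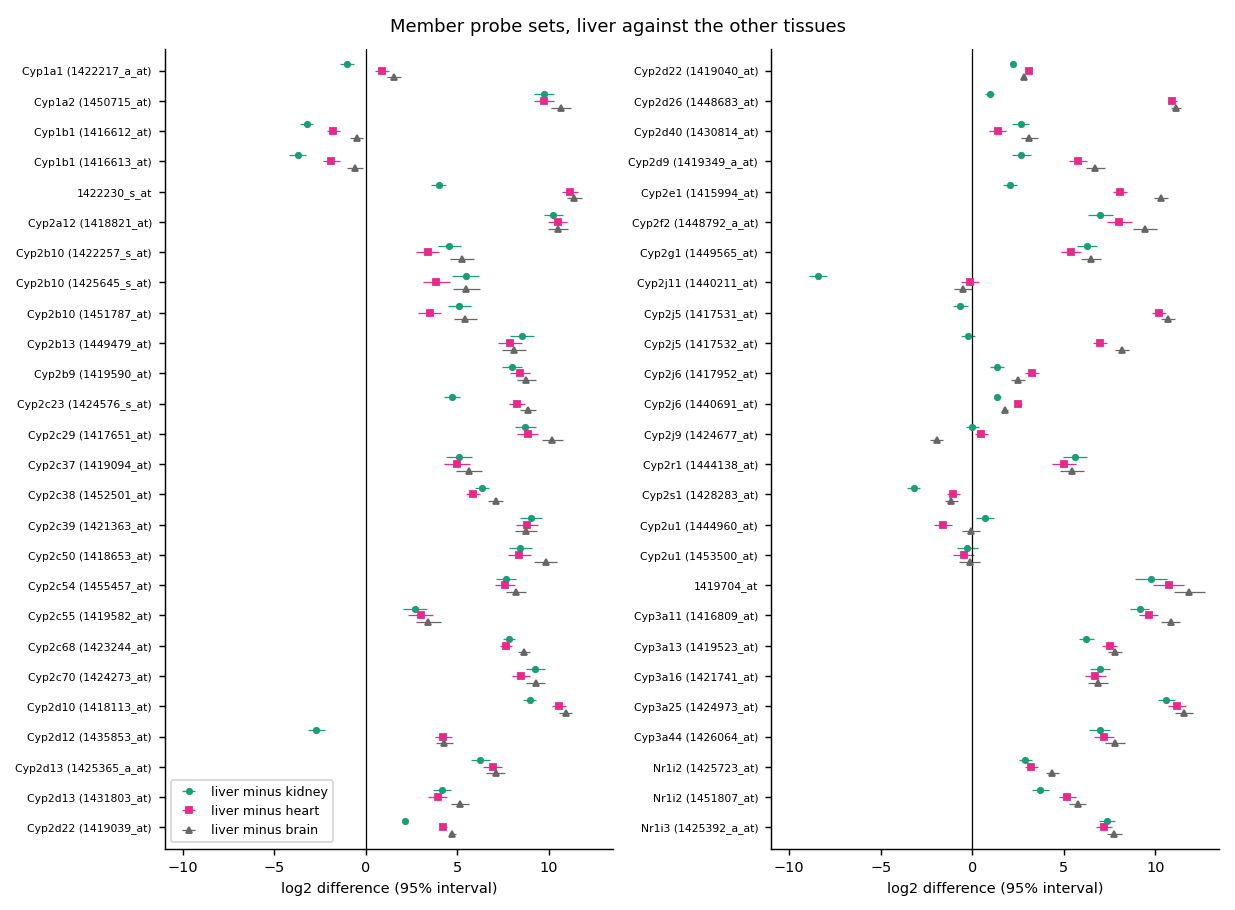
Difference in log2(signal + 1) between liver and kidney, heart or brain for the 52 member probe sets tested over all 72 arrays; points are limma estimates, bars 95% intervals, and values right of 0 are higher in liver. In the kidney comparison 42 members were called higher and 7 lower in liver, and differences against a tissue below the filter are against background.

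After 14 months, 5 members were called between Q10 and control livers, all lower in Q10, namely Cyp2b13, Cyp2b9, Cyp2b10, Cyp2d40 and Cyp1a2. This is 10% of the 50 tested, against 2.33% of all probe sets called lower and 6.21% called in either direction. Of the 50, 40 had an estimate below 0, with a median of -0.58, beside a median of -0.10 over all probe sets. Of all probe sets called, 62.5% were higher in Q10, and 97.7% on the values as deposited, where 1 member was called and the median of all probe sets was 0.34.

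Cyp2b13, a steroid hydroxylase that mouse liver makes mainly in females, had signals of 1075, 186 and 835 in the Q10 livers, against 1916, 1749 and 1738 in control livers. Every Q10 liver lay below every control liver, the second of them far below, and the difference was -1.71 ± 0.39 (limma adjusted p = 0.0152). Cyp2b9, its female-predominant neighbour with the nearly identical promoter window, had 1487, 221 and 864 in Q10 livers, against 1939.9, 2081 and 1931 in control livers, a difference of -1.59 ± 0.40 (limma adjusted p = 0.025). The order of the Q10 livers was the same as for Cyp2b13. Cyp2b10, the standard indicator of constitutive androstane receptor activity in mouse liver, is on 3 probe sets, of which 2 carry the suffix _s_at that marks probes shared between related transcripts. On 1422257_s_at the signals were 60.3, 6.68 and 7.61 in Q10 livers, against 57.4, 49.6 and 93.2 in control livers. The first Q10 liver was within the control range and the others were far below it, and the difference was -2.03 ± 0.56 (limma adjusted p = 0.0387). The other probe sets did not pass, with -2.46 ± 0.75 on 1451787_at and -1.83 ± 0.60 on 1425645_s_at (limma adjusted p = 0.0573 and 0.0748).

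Cyp1a2 had 3471, 702 and 2403 in Q10 livers, against 4837, 3773 and 4421 in control livers, without overlap, and differed by -1.26 ± 0.36 (limma adjusted p = 0.0468). Cyp2d40, a dim member of the CYP2D cluster, had 22.5, 13.4 and 16.4 in Q10 livers, against 34.8, 41.6 and 42.4 in control livers, also without overlap, and differed by -1.16 ± 0.34 (limma adjusted p = 0.0465). Cyp2c29 had 4501, 828 and 4035 in Q10 livers, against 5641, 5946 and 5423 in control livers, a difference of -1.20 ± 0.38 that did not pass (limma adjusted p = 0.0703). For Cyp2e1 the signals were 9177, 4739.7 and 10546 in Q10 livers, against 10320.5, 10052 and 9572 in control livers, so that the second Q10 liver was far below the rest and the first lay just below the controls. Cyp2f2, a naphthalene-oxidising enzyme of periportal hepatocytes, had 5590.0, 2289 and 1693 in Q10 livers, against 4516, 4739.7 and 4631 in control livers, with the second and the third Q10 livers low and the first high.

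The CYP3A members did not move as a block. Cyp3a11 had 7617, 7559 and 8829.9 in Q10 livers, against 7674, 7895 and 6969 in control livers, and 1419704_at (Cyp3a41b with Cyp3a41a) had 6659, 7617 and 7156 in Q10 livers, against 7033, 6764 and 7279 in control livers. Both ranges overlapped, with 95% intervals of the difference of -0.16 to 0.34 and -0.26 to 0.31. Cyp3a16, another female-predominant enzyme, had 284, 5.72 and 139 in Q10 livers, against 156, 179 and 219 in control livers. Cyp3a25 had 3716, 1523 and 3598 in Q10 livers, against 3954, 4320.1 and 3645 in control livers. In each of these the second Q10 liver was low and the other Q10 livers lay nearer to the controls. The second Q10 liver was high for a few members. Cyp2d9, a male-predominant testosterone hydroxylase, had 170.2, 497 and 169.6 in Q10 livers, against 173, 181 and 273 in control livers, and Cyp2d12 had 27.0, 259 and 17.7 in Q10 livers, against 10.7, 22.3 and 29.2 in control livers. Neither passed the test. By family, all 5 CYP2B and all 5 CYP2J probe sets had estimates below 0, as did 9 of 10 CYP2C, 7 of 9 CYP2D and 3 of 6 CYP3A probe sets, with 3, 0, 0, 1 and 0 called. Cyp1a1 and Cyp1b1 differed by -0.02 ± 0.51 and 0.85 ± 0.67, and Cyp2s1 by 1.67 ± 0.65 (limma adjusted p = 0.133), the largest estimate above 0 among the members. Cyp2r1, a vitamin D hydroxylase, differed by -0.24 ± 0.34, and Cyp3a13 by -0.63 ± 0.29. None of these was called.

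The receptors themselves were not called. Nr1i3 had 356, 153 and 319 in Q10 livers, against 373, 455 and 359 in control livers, a difference of -0.60 ± 0.28 that did not pass (limma adjusted p = 0.208). The Nr1i2 differences were -0.03 ± 0.26 and -0.45 ± 0.31 on its 2 probe sets. Of 18 regulators of P450 transcription measured, among them Ahr, Rxra, Hnf4a and Cebpa, none was called and 16 had estimates below 0, with a median of -0.38. In the list of electron supply and haem synthesis, 13 of 15 genes were tested. Hmox1, the inducible haem-degrading oxygenase, was higher in Q10 livers by 1.75 ± 0.31 (limma adjusted p = 0.00244), while Cyb5b, an outer mitochondrial membrane cytochrome b5, differed by -0.99 ± 0.23 (limma adjusted p = 0.0167) and Alad, the haem pathway's aminolevulinate dehydratase, by -0.62 ± 0.18 (limma adjusted p = 0.0473). Aldh1a1, a retinaldehyde dehydrogenase, was the member called among 15 other targets of these receptors, at -0.57 ± 0.13 (limma adjusted p = 0.0166). Of 10 pericentral hepatocyte genes all had estimates below 0, with a median of -0.87, and Oat, Cyp1a2 and Slc1a2 were called. Of 8 periportal genes 0 were called, with a median of -0.30. The 12 P450 targets of the receptors Nr1i2 and Nr1i3 tested had a median of -0.93 with 2 called lower. The 4 female-biased P450s had a median of -1.55 with 2 called lower, namely Cyp2b13 and Cyp2b9. The 3 targets of the aryl hydrocarbon receptor had a median of -0.02 with 1 called lower. These lists share members with each other. The counts stand beside the 6.21% of all probe sets called in either direction and the 2.33% called lower. A median of 4 genes does not describe female-biased P450s as a whole. Cyp3a44 had 658, 187 and 502 in Q10 livers, against 371, 271 and 589 in control livers, with overlap. Cyp3a41b with Cyp3a41a, on a shared probe set, overlapped too, as given above.

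The 3 Q10 livers at 14 months differed from each other. Of the 50 members, 19 in the first Q10 liver lay below all 3 controls, 41 in the second and 33 in the third, against 30.3%, 42% and 39% of all probe sets in the same arrays. The median difference from the control mean was 0.01 in the first, -1.25 in the second and -0.37 in the third. The same livers differed in markers of other cells. Summed signals of 12 macrophage markers were 6914, 16119 and 23580.5 in Q10 livers, against 2368, 1014 and 2483 in control livers, and all 12 were called higher. For neutrophil markers the sums were 688, 17170.3 and 6674 in Q10 livers, against 1109, 423 and 424 in control livers (6 of 8 called higher), and for B and T cell markers 454, 3994 and 1984 in Q10 livers, against 185, 132 and 191 in control livers (5 of 7 called higher). Hepatocyte markers summed to 69493, 61847 and 66682 in Q10 livers, against 69802, 69794 and 68227 in control livers, with 0 of 8 called. The ratio of the 3′ to the 5′ actin control probe set, which is higher in degraded RNA, was 3.04, 1.59 and 1.98 in Q10 livers, against 3.49, 3.88 and 4.11 in control livers. With this ratio as a covariate 0 members were called. The part of immune cells and of RNA quality in the P450 result was not otherwise tested.

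Leaving out the second and the third Q10 livers left 1 Q10 liver, with Cyp2b13 at -0.75 and Cyp2b9 at -0.42. Without the first Q10 liver, 31 of the 50 members were called, as were 5411 of all 27022 probe sets. Without the second or the third, 2 and 3 members were called, beside 473 and 517 of all probe sets. Leaving out a control liver left 0 or 1 members, beside 518 to 759 of all probe sets.

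**Figure D2:**
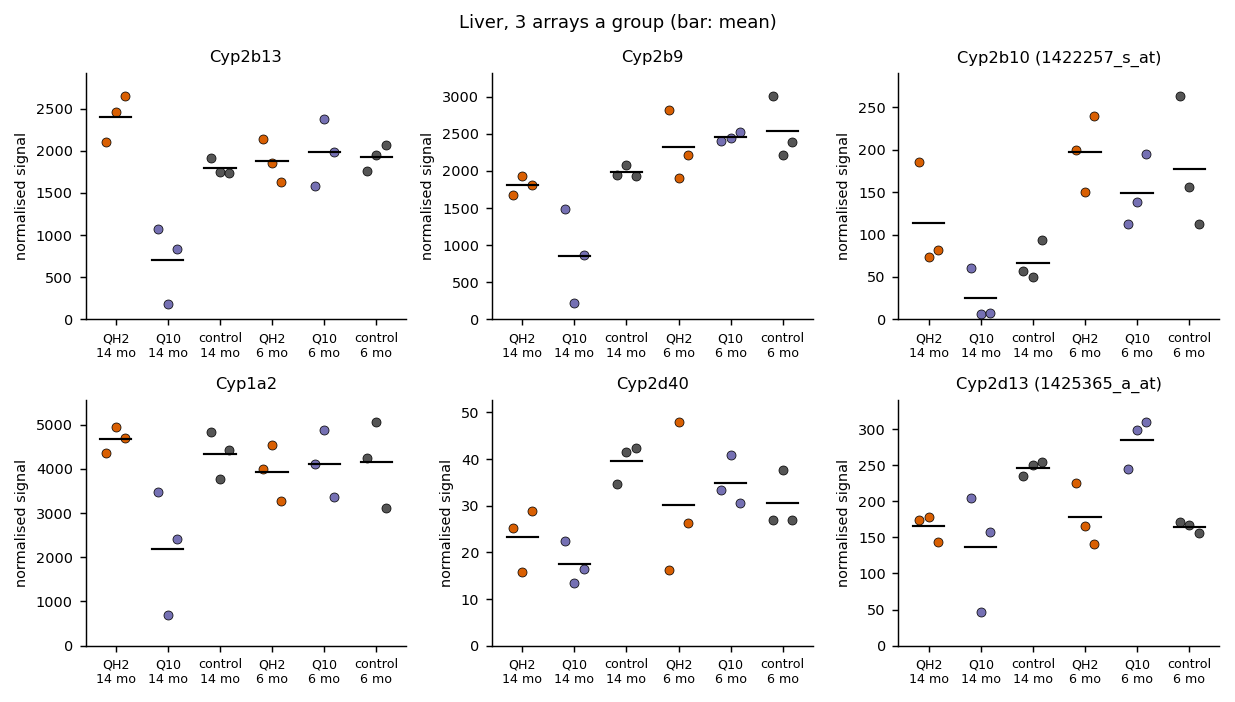
Normalised signal in liver of the 5 genes called for Q10 against control at 14 months and of Cyp2d13, called for the change of the Q10 effect with duration; each point is an array, bars are group means (n = 3), groups are QH2, Q10 and control at 14 and then 6 months. The lowest 2 of all 18 points are Q10 livers of 14 months for Cyp2b13, Cyp2b9, Cyp2b10 and Cyp1a2, but not for Cyp2d40, where QH2 points lie as low.

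The 2 forms of the coenzyme differ by the reduction of the quinone ring to a quinol, and were given at the same dose. At 14 months QH2 livers were set against Q10 livers, and 8 members were called, all higher in QH2, against 4.81% of all probe sets called higher, 4.93% called lower and 9.74% in either direction. They were Cyp2b13, Cyp2b9, all 3 Cyp2b10 probe sets, Cyp1a2, Cyp2j6 (1440691_at) and Cyp2u1 (1444960_at). These use the same Q10 livers as the comparison with control. Of all probe sets called, 49.4% were higher in QH2, against 3.47% on the values as deposited and 72.5% with arrays scaled to their 75th percentile. Cyp2b13 had 2103, 2461 and 2653 in QH2 livers, against 1075, 186 and 835 in Q10 livers, a difference of 2.12 ± 0.39 (limma adjusted p = 0.00316) with no overlap. On 1422257_s_at, Cyp2b10 had 186, 73.7 and 82.3 in QH2 livers, against 60.3, 6.68 and 7.61 in Q10 livers, a difference of 2.72 ± 0.56 (limma adjusted p = 0.00644), again with no overlap. Of the 50 members 10 had no overlap, against 25.9% of all probe sets. The other Cyp2b10 probe sets differed by 3.04 ± 0.75 and 2.38 ± 0.60, and their ranges overlapped. Cyp1a2 had 4358, 4949 and 4686 in QH2 livers, against 3471, 702 and 2403 in Q10 livers, a difference of 1.37 ± 0.36 (limma adjusted p = 0.0237). Cyp2b9 differed by 1.45 ± 0.40. Cyp2j6, a fatty acid epoxygenase, had 93.8, 63.0 and 71.6 in QH2 livers on 1440691_at, against 57.9, 30.7 and 33.6 in Q10 livers, a difference of 0.92 ± 0.25. Its brighter probe set, 1417952_at, was not called. It had 170, 116 and 148 in QH2 livers, against 136, 69.5 and 64.3 in Q10 livers, with overlap. The Cyp2u1 signals on 1444960_at, 10.8, 15.4 and 8.47 in QH2 livers, against 1.01, 3.40 and 0.461 in Q10 livers, were low in both groups. QH2 and Q10 were compared in 8 pairs, at 2 durations in 4 tissues. With p-values adjusted over all 8 at once, 2 liver members stayed called, Cyp2b13 (adjusted p = 0.012, 95% interval 1.30 to 2.94) and Cyp2b10 on 1422257_s_at (adjusted p = 0.0224, 95% interval 1.55 to 3.90), both from limma. In 6 of 6 fits that left out an array of either group, these 2 were called at the threshold within this comparison. The other called probe sets held less often. Cyp2b10 was called in 2 (1451787_at) and 3 (1425645_s_at) of 6 such fits. Cyp1a2, Cyp2j6 and Cyp2b9 were each called in 2 of 6, and Cyp2u1 in 2 of the 5 where it was tested. The actin ratio ran from 3.66 to 7.36 in QH2 livers, against 1.59 to 3.04 in Q10 livers, without overlap. With it as a covariate 0 members were called, Cyp2b13 being at 0.99 and Cyp2b10 (1422257_s_at) at 0.41 (limma adjusted p = 1 for both). Without the second and the third Q10 livers Cyp2b13 was at 1.16 and Cyp2b10 (1422257_s_at) at 0.80.

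No member was called between QH2 and control livers at either duration. By limma 0 of 50 members were called at 14 months and 0 at 6 months, as were 0% of all probe sets, and 2 and 0 members had an unadjusted p under 0.05. The median member difference at 14 months was 0.03, beside 0.01 over all probe sets. Cyp2b13 had 2103, 2461 and 2653 in QH2 livers at 14 months, against 1916, 1749 and 1738 in control livers. These did not overlap, as for 7 of the 50 members, against 18.7% of all probe sets, and the difference was 0.41 ± 0.39 (limma adjusted p = 0.941, 95% interval -0.41 to 1.23). For Cyp2b9 the 95% interval was -0.98 to 0.70, for Cyp1a2 -0.66 to 0.87, for Cyp2e1 -0.40 to 0.46 and for Cyp3a11 -0.26 to 0.24. The members with the smallest p at 14 months were Cyp2d13 (1431803_at, -0.66 ± 0.27), Cyp2d40 (-0.78 ± 0.34) and Cyp2s1 (1.21 ± 0.65). At 6 months they were Cyp2c54 (-0.65 ± 0.33), Nr1i2 (1451807_at, 0.57 ± 0.31) and Cyp2c23 (-0.29 ± 0.18). None passed.

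**Figure D3:**
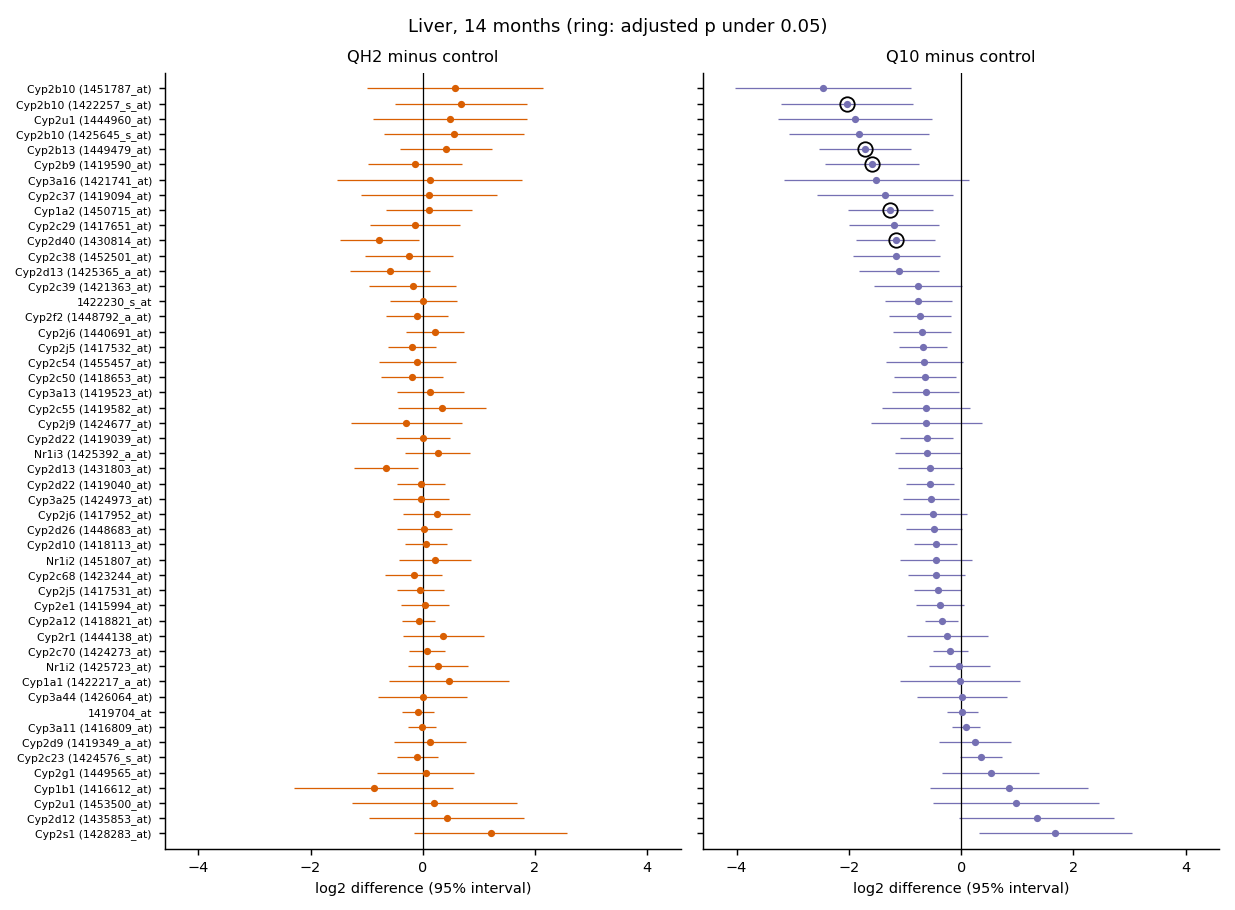
Difference in log2(signal + 1) from control for the 50 member probe sets tested in liver at 14 months, QH2 on the left and Q10 on the right, with 95% intervals from limma; rows are ordered by the Q10 estimate and rings mark adjusted p under 0.05. The Q10 estimates have a median of -0.58 and 5 rings, the QH2 estimates a median of 0.03 and none.

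After 6 months, 0 of 50 liver members were called for Q10 against control, against 0.81% of all probe sets (0.785% called higher), with 2 members at an unadjusted p under 0.05 in limma. Both were probe sets of Cyp2d13, with 245, 298 and 310.0 in Q10 livers, against 172, 167 and 156 in control livers on 1425365_a_at. Cyp2c70, which hydroxylates bile acids to muricholic acids in mice, came next, with 5850.2, 5800.0 and 6514 in Q10 livers, against 6764, 8090.1 and 7674 in control livers, a difference of -0.31 ± 0.15 (limma adjusted p = 0.553). For QH2 against Q10 at 6 months 0 members were called, against 0.988% of all probe sets, the smallest p belonging to Cyp2d13 (1431803_at, -0.70 ± 0.27), Cyp2j9 (-1.19 ± 0.47) and Nr1i2 (1451807_at, 0.76 ± 0.31). Cyp2d13 turned with duration. On 1425365_a_at it had 205, 46.2 and 157 in Q10 livers at 14 months, against 236, 250.2 and 254 in control livers, so that Q10 livers lay below controls at 14 months and above them at 6 months without overlap at either time. The Q10 effect at 14 months minus that at 6 months was -1.88 ± 0.48 (limma adjusted p = 0.0467), the member called in this comparison, against 2.33% of all probe sets in either direction and 1.33% called lower. It was called in 3 of 12 fits that left out an array, those without a Q10 liver of 14 months, and without the second and the third of these livers the value was -1.07 (adjusted p = 0.141). The other Cyp2d13 probe set gave -1.22 ± 0.39 (limma adjusted p = 0.108). Averaged over durations, 0 members were called for QH2 or Q10 against control, against 0% and 0.84% of all probe sets (for Q10, 0.744% higher and 0.0962% lower), with 1 and 17 members at an unadjusted p under 0.05.

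In kidney, where Cyp2j5, Cyp2j11, Cyp2e1 and Cyp2d26 gave strong signals, diet differences were again found between Q10 and the other diets at 14 months. Cyp2d12 was the member called for Q10 against control, 1 of 29, against 0.67% of all probe sets. It had 303, 180.2 and 107 in Q10 kidneys, against 353, 432 and 463 in control kidneys, with no overlap and a difference of -1.19 ± 0.26 (limma adjusted p = 0.0444). It lost the call in 5 of 6 fits that left out an array, where it ranged from -1.57 to -0.82. For QH2 against Q10, 4 of 29 members were called, 3 higher and 1 lower in QH2, against 6.04% of all probe sets in either direction. Cyp2d12 had 358, 475 and 406 in QH2 kidneys, above all Q10 kidneys, and differed by 1.18 ± 0.26 (limma adjusted p = 0.0146). The QH2 and Q10 kidneys also did not overlap for Cyp1b1 on 1416613_at and for Cyp2d22. Cyp1b1 (1416613_at) had 63.4, 61.4 and 97.0 in QH2 kidneys, against 126, 105 and 172 in Q10 kidneys. The difference was -0.85 ± 0.20 (limma adjusted p = 0.019). The brighter Cyp1b1 probe set, 1416612_at, was not called. It had 121, 94.8 and 181 in QH2 kidneys, against 194.5, 178.9 and 358 in Q10 kidneys, with overlap. Cyp2d22 (1419040_at) had 137, 135 and 143 in QH2 kidneys, against 117, 60.6 and 92.7 in Q10 kidneys, a difference of 0.66 ± 0.18 (limma adjusted p = 0.0383). Cyp2j5 (1417531_at) had 4958, 4585 and 4743 in QH2 kidneys, against 4157, 3829 and 4042 in Q10 kidneys and 5117, 4786 and 4509 in control kidneys, the Q10 kidneys lying below all others. Its difference between QH2 and Q10 was small, 0.25 ± 0.07 (limma adjusted p = 0.0482), and that between Q10 and control did not pass (-0.26 ± 0.07, limma adjusted p = 0.109). The other Cyp2j5 probe set, 1417532_at, was not called and its ranges overlapped. It had 1350, 891 and 1072 in Q10 kidneys, against 1130, 1184 and 1525 in QH2 kidneys and 1395, 1204 and 1341 in control kidneys. Cyp2d22 (1419040_at) and Cyp2j5 (1417531_at) were each called in 1 of 6 fits that left out an array. Without the second Q10 kidney Cyp2d22 was at 0.41 (limma adjusted p = 0.17). Cyp1b1 (1416613_at) was called in 3 and Cyp2d12 in 5 of 6 such fits for QH2 against Q10. Adjusted over the 8 pairs of forms together, Cyp2d12 (adjusted p = 0.0353, 95% interval 0.63 to 1.73) and Cyp1b1 on 1416613_at (adjusted p = 0.0448, 95% interval -1.27 to -0.43) stayed called by limma.

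The second and the third Q10 kidneys of 14 months stood apart too. Whether they came from the same mice as the second and the third Q10 livers is not given. In heart and brain, too, the second and the third Q10 arrays of 14 months had the highest B and T cell marker sums of their tissue. The sums were 209, 1265 and 2110 in Q10 hearts and 131, 312 and 284 in Q10 brains of 14 months. Whether a replicate number marks 1 mouse across tissues was not tested. B and T cell marker sums were 541, 5613 and 2624 in Q10 kidneys, against 365, 576 and 678 in QH2 kidneys and 1442, 618 and 2087 in control kidneys. Macrophage sums were 2713, 8332 and 4721 in Q10 kidneys, against 2566, 1886 and 2393 in QH2 kidneys and 3369.7, 1973 and 3562 in control kidneys. Kidney tubule sums were 38839, 38072 and 40708 in Q10 kidneys, against 44239.9, 41971 and 40716 in control kidneys. Their part in the P450 differences was not tested. Without these 2 arrays Cyp2d12 was at -0.45 for Q10 against control (limma adjusted p = 0.556), and without the third alone at -0.82. Cyp2f2 was high in single kidneys. It had 1076, 8.06 and 12.7 in Q10 kidneys at 14 months and 30.9, 28.8 and 286 in Q10 kidneys at 6 months, while QH2 and control kidneys ran from 16.4 to 74.3. The same first Q10 kidney of 14 months and the third Q10 kidney of 6 months had adrenal marker sums (steroidogenic genes such as Cyp11a1 and Star) of 16349 and 3676, against 27.9 to 151 in the other 16 kidney arrays. Cyp2f2 was not called in any kidney comparison.

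At 6 months 0 of 29 kidney members were called for QH2 against control, Q10 against control or QH2 against Q10, against 0.192%, 0% and 0.292% of all probe sets, and by limma 1 member in each had an unadjusted p under 0.05. Nr1i2 (1425723_at) had 5.31, 20.1 and 12.2 in QH2 kidneys, against 28.1, 16.6 and 28.2 in control kidneys, a difference of -1.03 ± 0.42 (limma adjusted p = 0.41). Cyp2u1 (1453500_at) differed by -1.19 ± 0.55 for Q10 against control and Cyp2c38 by 1.21 ± 0.40 for QH2 against Q10. For QH2 against control at 14 months 0 were called, against 0% of all probe sets, with 1 at an unadjusted p under 0.05 (Cyp2d13, 1431803_at, 1.64 ± 0.73). Averaged over durations, 0 members were called for QH2 or Q10, against 0% and 0.0259% of all probe sets, and 0 for the change of either effect with duration, against 0% and 0.0074%.

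**Figure D4:**
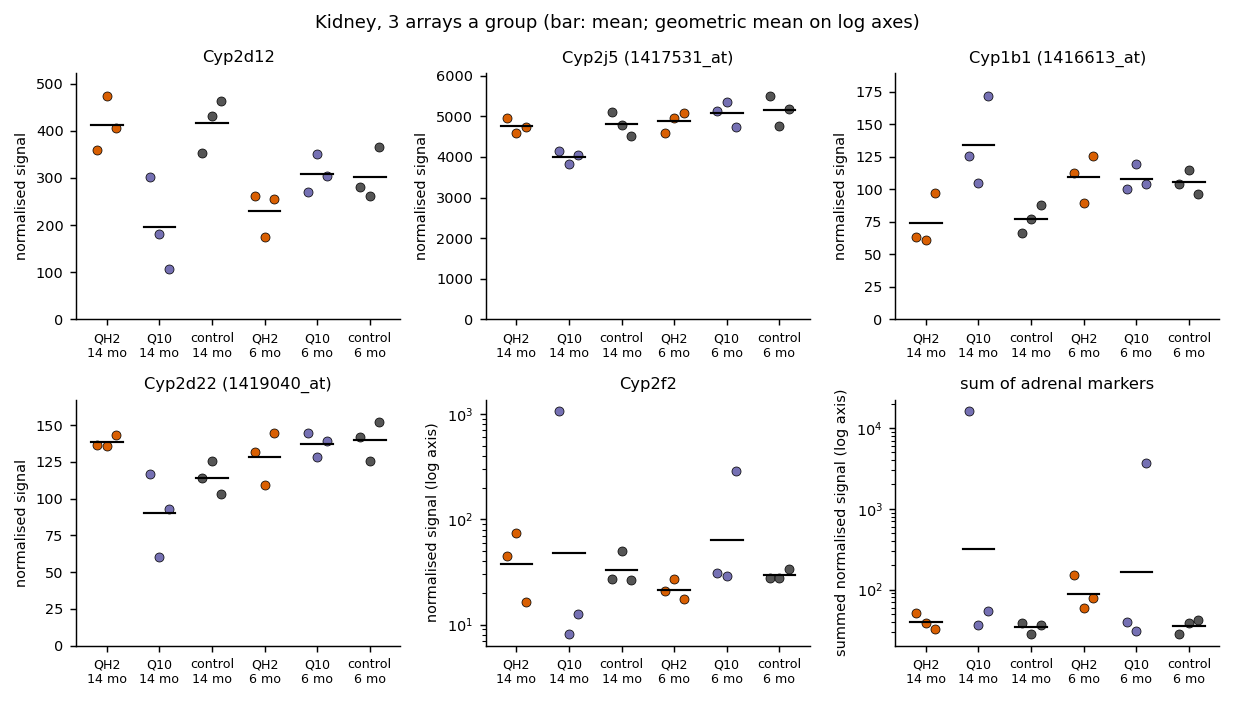
Normalised signal in kidney of the 4 genes called at 14 months, of Cyp2f2, and the summed signal of 6 adrenal markers, with log axes for the last 2 panels; each point is an array, bars are group means (n = 3; geometric on log axes) and groups are QH2, Q10 and control at 14 and then 6 months. The 2 arrays high for Cyp2f2 are those high for the adrenal markers.

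In heart 0 of 22 members were called in any comparison of diets, against 0% to 0.0666% of all probe sets, and 0 to 3 members per comparison had an unadjusted p under 0.05 in limma. Cyp2b10 had the smallest p for QH2 against control at 14 months. On 1425645_s_at it had 19.2, 115 and 67.3 in QH2 hearts at 14 months, against 25.2, 16.1 and 20.6 in Q10 hearts and 16.8, 11.6 and 20.6 in control hearts. The second and the third QH2 hearts were high and the first lay among the controls, and the difference from control was 1.68 ± 0.86 (limma adjusted p = 1). Cyp1b1 (1416613_at) had 22.2, 27.4 and 23.6 in QH2 hearts at 6 months, against 8.14, 16.3 and 11.5 in Q10 hearts, without overlap, and at 14 months 24.9, 18.7 and 23.7 in QH2 hearts, against 30.7, 30.4 and 26.2 in Q10 hearts. The smallest p for QH2 against control at 6 months belonged to Cyp1b1 (1416612_at, 0.57 ± 0.22), for Q10 against control at 14 months to Cyp1b1 (1416613_at, 0.78 ± 0.31) and for QH2 against Q10 at 14 months to Cyp2b10 (1451787_at, 2.30 ± 0.87). For Q10 against control at 6 months it belonged to Cyp2s1 (-1.15 ± 0.37, limma adjusted p = 0.712). In brain 8 members could be tested, and 0 were called in any comparison of diets, against 0% to 0.0296% of all probe sets, with 0 or 1 at an unadjusted p under 0.05. Cyp2j6 (1440691_at) had the smallest p for QH2 against Q10 at both durations, in opposite directions. At 6 months it had 52.3, 49.5 and 43.6 in QH2 brains, against 64.7, 50.1 and 77.8 in Q10 brains, a difference of -0.38 ± 0.17 (limma adjusted p = 0.615, unadjusted p = 0.0377). At 14 months it had 76.7, 68.4 and 78.1 in QH2 brains, against 67.7, 52.0 and 58.1 in Q10 brains, a difference of 0.33 ± 0.17 (limma adjusted p = 1, 95% interval -0.03 to 0.68). Against control the smallest p belonged to Cyp2s1 for QH2 at 6 months (0.39 ± 0.26), Cyp2j6 (1440691_at) for QH2 at 14 months (0.27 ± 0.17), Cyp2u1 for Q10 at 6 months (-1.04 ± 0.62) and Cyp1b1 for Q10 at 14 months (0.20 ± 0.19). Cyp2j9, the member with the strongest signal there, had 95% intervals of -0.22 to 0.23 for QH2 and -0.14 to 0.31 for Q10 against control at 14 months.

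Between durations, and so ages, in liver 16 of 50 were called for 14 against 6 months averaged over diets, 1 higher and 15 lower, against 11.2% of all probe sets called higher, 9.53% called lower and 20.8% in either direction. The median member difference was -0.27, beside -0.02 over all probe sets. Of all probe sets called, 54.1% were higher at 14 months, and 93.5% on the values as deposited, where 7 members were called and the median of all probe sets was 0.20. All 3 Cyp2b10 probe sets were lower at 14 months. On 1425645_s_at the signals were 257, 113 and 110.2 in QH2, 121, 8.93 and 18.4 in Q10 and 86.9, 101 and 115 in control livers at 14 months, against 283, 182 and 306 in QH2, 131, 203 and 302 in Q10 and 360.2, 231 and 170.5 in control livers at 6 months. Control livers of 14 months lay below those of 6 months, and the difference over diets was -1.61 ± 0.34 (limma adjusted p = 0.00299). On the other probe sets it was -1.81 ± 0.32 and -1.83 ± 0.43. Without the second and the third Q10 livers of 14 months these 3 values were -0.94, -1.20 and -0.99.

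Among 10 CYP2C members tested, 5 were called lower and all had estimates below 0. Cyp2c39 had a lowest, median and highest signal of 377, 1716 and 1990.0 in the 9 livers of 14 months, against 2137, 2569.9 and 3176 in the 9 livers of 6 months, with no overlap, and differed by -0.88 ± 0.21 (limma adjusted p = 0.00714). Cyp2c70 had 3566, 5197 and 5665 at 14 months, against 5800.0, 6514 and 8090.1 at 6 months, again without overlap (-0.48 ± 0.09, limma adjusted p = 0.000898). These were the 2 members of 50 whose durations did not overlap, against 1.43% of all probe sets. Cyp2c29 differed by -0.74 ± 0.22, Cyp2c68 by -0.46 ± 0.14 and Cyp2c55 by -0.98 ± 0.22. Cyp2b9 had 221, 1817 and 2081 at 14 months, against 1912, 2399 and 3016 at 6 months, a difference of -0.86 ± 0.23 (limma adjusted p = 0.0129), whereas Cyp2b13 was not called (-0.52 ± 0.23, limma adjusted p = 0.11). Cyp2a12, Cyp2j5 (1417531_at), Cyp2j6 (1440691_at), Cyp2d9, Cyp2u1 (1453500_at) and Cyp3a11 were also called lower, at -0.35, -0.45, -0.57, -0.51, -1.20 and -0.22. Only the largest of these changes were followed gene by gene in other fits, which leaves out Cyp2c68, Cyp2a12, Cyp2j5 and Cyp3a11. Of those followed, Cyp2u1 was called in 5 and Cyp2d9 in 4 of 18 fits that left out an array. On the values as deposited, Cyp2c70, Cyp2c55, Cyp2c29, Cyp2j6, Cyp2u1 and Cyp2d9 lost the call (limma adjusted p = 0.0577 to 0.549). Without the second and the third Q10 livers of 14 months Cyp2j6 was at -0.40 and Cyp2u1 at -0.90. Cyp1a2, Cyp2e1 and Cyp2f2 were not called, at -0.28 ± 0.21, -0.20 ± 0.12 and -0.40 ± 0.15.

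The member called higher at 14 months was Nr1i2. On 1451807_at the signals were 119.6, 123 and 111 in QH2, 123, 48.8 and 67.5 in Q10 and 82.0, 120.5 and 105 in control livers at 14 months, against 52.5, 31.1 and 34.7 in QH2, 28.9, 19.4 and 19.7 in Q10 and 22.2, 36.8 and 20.5 in control livers at 6 months. The durations overlapped through the second Q10 liver of 14 months alone, and the difference was 1.74 ± 0.18 (limma adjusted p = 5.56e-06). The other Nr1i2 probe set, 1425723_at, did not show it (0.17 ± 0.15, limma adjusted p = 0.452), so the probe sets of this gene disagree. Nr1i3 differed by 0.12 ± 0.16 and was not called. Of the 18 regulators 0 were called, Nr1i2 being represented there by 1425723_at. B and T cell markers were higher at 14 months for 5 of 7 tested and macrophage markers for 1 of 12, and their part was not tested.

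In kidney 7 of 29 members were called for 14 against 6 months, all lower, against 21.1% of all probe sets called lower and 40.9% in either direction, so the share of members was near that of all probe sets. Cyp2d22 (1419040_at) and Cyp2c23 were called in 6 and 11 of 18 fits that left out an array. The changes were small. Cyp2j6 (1440691_at) had 32.0, 42.7 and 54.5 at 14 months, against 51.6, 60.7 and 71.9 at 6 months, a difference of -0.57 ± 0.09 (limma adjusted p = 7.95e-05), and Cyp2d26 had 1942, 2585 and 3242 at 14 months, against 2739.8, 3272 and 3474 at 6 months, a difference of -0.34 ± 0.06. Cyp1b1 (1416612_at), Cyp2d22 (1419040_at), Cyp2c23, Cyp2j11 and Cyp2j5 (1417531_at) differed by -0.49, -0.27, -0.25, -0.24 and -0.16. The other tested probe sets of Cyp2j6, Cyp1b1, Cyp2d22 and Cyp2j5 were not called. Among them the brighter Cyp2d22 probe set, 1419039_at, ran from 122 to 240 at 14 months, against 173 to 248 at 6 months. On the deposited values, where the median probe set is 0.41 higher at 14 months, Cyp2d22 (1419040_at), Cyp2c23, Cyp2j11 and Cyp2j5 were 0.15, 0.21, 0.043 and 0.041 above 0. None of the 7 kept its call there (limma adjusted p = 0.291 to 0.844, Cyp2j6 at -0.046), and of all probe sets called 96.9% were higher, against 48.4% after quantile normalisation. B and T cell markers were higher at 14 months for 6 of 8 tested (1 was lower) and macrophage markers for 5 of 9, and their part was not tested. In heart 4 of 22 were called, all higher at 14 months, against 9.46% of all probe sets called higher and 18.8% in either direction. Of all probe sets called, 50.2% were higher, and 99.8% on the values as deposited. Summed adipocyte markers ran from 5239 to 7548 in hearts of 14 months, against 4261 to 4904 at 6 months, with 1 of 5 called higher, and 2 of 6 B and T cell markers were called higher. Their part was not tested. Cyp2b10, which was lower at 14 months in liver, had 19.2, 115 and 67.3 in QH2, 25.2, 16.1 and 20.6 in Q10 and 16.8, 11.6 and 20.6 in control hearts at 14 months, against 1.26, 1.34 and 36.7 in QH2, 7.31, 6.60 and 2.74 in Q10 and 2.40, 1.64 and 9.19 in control hearts at 6 months. In Q10 and control hearts the durations did not overlap, and the difference over diets was 2.30 ± 0.49 (limma adjusted p = 0.0026), with 1.77 ± 0.47 and 1.61 ± 0.50 on the other probe sets. These signals are near the filter, and with a filter at the 60th percentile none of the 4 was tested. The difference between liver and heart was not tested. Cyp2d13 (1431803_at) differed by 1.41 ± 0.38 (limma adjusted p = 0.012).

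In brain 4 of 8 were called, all higher at 14 months, against 28.5% of all probe sets called higher and 56.2% in either direction. Of all probe sets called, 50.7% were higher, and 88.8% on the values as deposited. Summed astrocyte and oligodendrocyte markers ran from 21915 to 26516 in brains of 14 months, against 16632 to 19555 at 6 months, without overlap and with 7 of 7 called higher, and 5 of 9 macrophage markers were called higher and 1 lower. Their part was not tested. Cyp2j9 had 243, 258 and 289.8 in the 9 brains of 14 months, against 115, 137 and 160.0 in the 9 brains of 6 months, with a wide gap between them and a difference of 0.93 ± 0.06 (limma adjusted p = 7.84e-10). It was called in 18 of 18 fits that left out an array, at 0.88 to 0.96. Cyp2d22, a CYP2D enzyme found in brain as well as liver, had 128, 152 and 161 at 14 months, against 85.8, 97.6 and 116 at 6 months on 1419040_at, without overlap, and differed by 0.59 ± 0.07 there and 0.61 ± 0.13 on 1419039_at. Cyp1b1 (1416612_at), which is made by vascular cells, differed by 0.38 ± 0.11 (limma adjusted p = 0.00573).

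**Figure D5:**
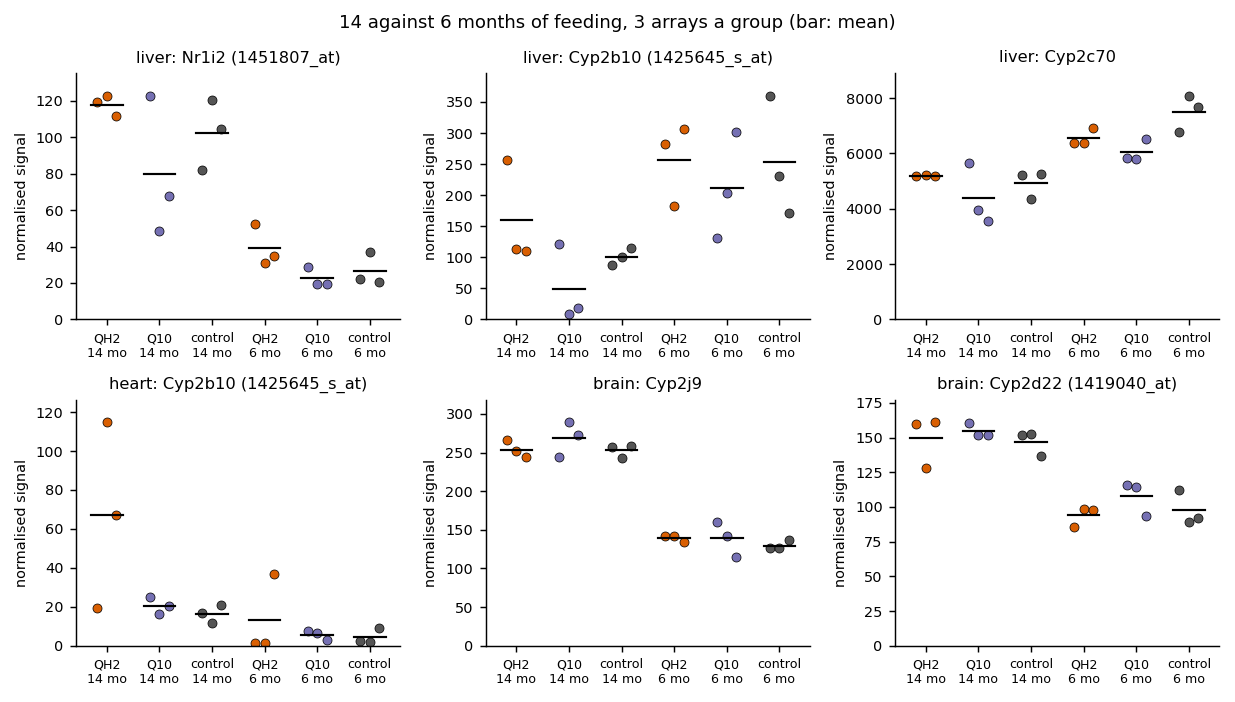
Normalised signal of members called for 14 against 6 months in liver (top) and in heart and brain (bottom); each point is an array, bars are group means (n = 3) and groups are QH2, Q10 and control at 14 and then 6 months. Cyp2b10 is lower at 14 months in liver and higher in heart, Nr1i2 on this probe set is higher in liver, and Cyp2c70, Cyp2j9 and Cyp2d22 show no overlap between durations.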

How the data were processed

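Total RNA of 72 tissue samples was labelled as biotin cRNA and hybridised to an array of 45101 probe sets, per the labels' protocols. The deposited values are linear intensities made by the authors with GCOS, per the submitters' processing notes, with version and settings not given in the sources used here. Probe sets were named through the platform annotation, updated through RefSeq on GRCm38. Here 64 control probe sets were dropped, arrays were quantile normalised within tissue (across all 72 for tissue comparisons), probe sets with a mean above the 40th percentile were kept, and log2(intensity + 1) was fitted with limma 3.58.1 in R 4.3.3, with group means and an intensity trend in eBayes and Benjamini-Hochberg adjustment within each of 44 comparisons within tissues and 6 between tissues. A call is an adjusted p under 0.05.

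Members, lists and tests were chosen with earlier results of these data known. Every member could be named, and values are given for those called between diets, those with the smallest p in each comparison of 2 diets at 1 duration, the largest changes with duration, the brightest genes and a list of main P450s. A named gene is represented by its brightest tested probe set unless its identifier is given. Within a tissue, arrays of different groups with the same replicate number did not deviate together (mean correlation from -0.011 in kidney to 0.0093 in brain). The main fits therefore did not pair them. As the arrays of a tissue are different mice, this cannot show whether a number marks the same mouse across tissues. Alternatives were other scalings, filters and offsets, no trend, array weights, a replicate block, the actin ratio as covariate, only the groups compared, and leaving out each array. In simulated data for Q10 against control at 14 months (27022 probe sets), 28, 63, 54 and 68 of 100 probe sets changed 2-fold and 68, 88, 78 and 93 of 100 changed 4-fold were called for the tissues in the order liver, kidney, heart, brain, with 7, 12, 7 and 5 false calls. The simulated noise was independent between arrays and had the same spread in every group. The Q10 livers and kidneys of 14 months differed among themselves, so these counts need not hold for them. Promoters were aligned with Biopython 1.88.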

Additional observations from a re-analysis of the deposited data

Results flagged for a closer look

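Cyp2d13 on 1425365_a_at had a Q10 effect in liver that differed between durations by the test of that difference, at -1.88 for 14 minus 6 months.

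In the remaining cases every array of one group moved one way and every array of the other the opposite way, and the difference between the groups was not tested. The value given is that of the first group named. For QH2 against Q10 at 14 and 6 months, Cyp2d12 in kidney was at 1.18 at 14 months and Cyp1b1 (1416613_at) in heart at -0.37 at 14 months. For Q10 against control at 14 months, Cyp2c38 was at -1.15 in liver, set against kidney, and at 0.48 in kidney, set against heart, and Cyp2j9 was at -0.63 in liver, set against heart. For QH2 against Q10, Cyp2c23 was at -0.45 in liver at 14 months and Cyp2d13 (1431803_at) at -0.70 in liver at 6 months, both set against kidney, while Cyp2j6 (1440691_at) was at 0.27 in kidney at 6 months, set against heart.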

How the results depend on the processing

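Outside the leave-one-out fits, 436 of 476 counts and 707 of 824 single values kept direction and side of the threshold (counts, within 1.5 times), as did 372 of 408 counts and 704 of 830 values with an array left out. The cause of the changes below was not tested. For Q10 against control at 14 months in liver, 5 called members became 1 on deposited values (beside 820 of all 27022 probe sets) and 3 with no filter (1385 of all probe sets). They became 32 with array weights (12240 of all) and 0 with no trend (777 of all), with 0 to 31 when an array was left out. With the actin ratio as covariate or only the groups compared, 0 members and 0 of all probe sets were called. Leaving out both Q10 arrays with high immune markers was an alternative chosen after seeing the data. It left 1 Q10 array of 14 months, so counts called are not given for it. For QH2 against Q10 in liver at 14 months, 8 became 25 with 75th percentile scaling (4310 of all) and 26 with array weights (11862 of all). They became 3 with no trend (1534 of all) and 0 with the actin covariate or only the groups compared (0 of all in both). Leaving out an array gave 2 to 31. Under the actin covariate Cyp2b10 turned to -0.54 (1451787_at) and -0.078 (1425645_s_at) and Cyp2j6 to -0.012. The 1 call for the change of the Q10 effect in liver became 13 with array weights (5154 of all), with 0 to 17 by array. It became 0 on deposited values, with no trend, the actin covariate or only the groups compared (30, 329, 1 and 348 of all). Averaged over durations, Q10 in liver gave 15 with array weights (5040 of all, 0 to 19 by array), and Q10 in kidney 1 with array weights (314 of all, 0 to 1 by array). For 14 against 6 months on deposited values, liver gave 7 of 50 (2523 of all), heart 16 of 22 (21090 of all) and brain 7 of 8 (17689 of all). With a 60th percentile filter heart gave 0 of the 5 members then tested (5221 of all). Brain gave 2 of the 4 then tested (11324 of all). Heart against brain gave 18 of the 48 tested on deposited values (22707 of all). In kidney at 14 months, Q10 against control gave 0 on deposited values, with no trend or with only the groups compared (0, 32 and 0 of all). It gave 4 with array weights (1080 of all), with 0 to 4 by array. QH2 against Q10 there gave 0 on deposited values or with only the groups compared (62 and 0 of all). It gave 2 with no filter or no trend (1113 and 683 of all) and 11 with array weights (3434 of all), with 0 to 10 by array. The Q10 effect's change in kidney gave 0 to 1 by array. On deposited values the kidney changes with duration turned to 0.15 for Cyp2d22, 0.21 for Cyp2c23, 0.043 for Cyp2j11 and 0.041 for Cyp2j5. Brain Cyp2u1 for Q10 against control at 6 months ranged from -1.66 to 0.085 with an array left out, turning without the second Q10 array. With the replicate number as a block, the change of the Q10 effect in liver gave 0 (545 of all). Q10 against control at 14 months in kidney also gave 0 (99 of all), with Cyp2d12 at limma adjusted p = 0.0779. Under this block Cyp2j5 (limma adjusted p = 0.0619) lost its call for QH2 against Q10 in kidney. Cyp1a2 (limma adjusted p = 0.0519) and Cyp2d40 (0.0564) lost their calls for Q10 against control in liver. The other liver calls of Q10 against control held. Signals near the filter, as for Cyp2b10 in heart, limit what can be compared.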
